A study of Mus musculus with 8 samples.

Results

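Interstitial progenitors are fibroblast-like cells of adipose tissue known for Pi16 and Dpp4. By a rule that did not require either of these genes, 10264 nuclei were selected from 77987 quality nuclei of mouse visceral white adipose tissue (13.2%). Quality nuclei were barcodes that held 1000 or more unique molecular identifiers (UMIs, each standing for 1 captured RNA molecule) from 300 or more genes, no more than 5% of them mitochondrial. A progenitor had a UMI of at least 3 of Pdgfra, Dcn, Col3a1, Lama2, Abca8a and Fbn1. Its summed UMIs of Pdgfra, Dcn and Col3a1 exceeded those of the adipocyte genes Plin1, Plin4 and Cidec, of the macrophage genes Adgre1, Csf1r and Mertk, and of the endothelial genes Flt1, Ptprb and Cyyr1, and fewer than 2 of the mesothelial genes Msln, Muc16, Upk3b and Nxph1 were detected. Of 16705 such progenitors, the 61.4% with a UMI of at least 2 of Pi16, Dpp4, Sema3c, Anxa3, Efhd1 and Creb5 are called interstitial progenitors here, and the remaining 6441 are called other progenitors. At the edge of the rule, 3639 interstitial progenitors had exactly 2 of these 6 programme genes and 4141 other progenitors had exactly 1. The 25 genes read by the rule are described and never tested.

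Single-nucleus RNA was counted in 8 mice, 2 in each of 4 groups, from snap-frozen tissue whose nuclei were sorted on the DNA dye DAPI. All mice carried the red fluorescent protein mCherry at 1 allele of p21, the gene Cdkn1a. The genotype p21+/mCherry was fed a standard diet (SD mice rep144 and rep146) or a high-fat diet (mCherry HFD mice rep128 and rep129), and the genotypes p21+/mCherry-Tert (Tert HFD mice rep134 and rep136) and p21+/mCherry-TertCi (TertCi HFD mice rep138 and rep140) were fed the high-fat diet. Tert encodes the catalytic subunit of telomerase. By the series' design text, mouse Tert or TertCi was driven by the p21 promoter, so that its expression is limited to cells that use this promoter, and the stated question was how that expression affects transcription. What TertCi is was not spelled out, and sex, age and weeks of diet were not given in the labels. The 3 high-fat groups share the diet, and mCherry HFD takes part in 3 of the 4 contrasts below, as the reference of the Tert and TertCi contrasts and as the fed group of the diet contrast.

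As background, the stroma of white fat holds several kinds of Pdgfra+ progenitor. Interstitial progenitors lie in the connective tissue sheath around the fat lobules, express Dpp4, the peptidase inhibitor gene Pi16 and the semaphorin gene Sema3c, and are known as a proliferative source of other progenitors. Committed preadipocytes express Pparg, the master regulator of fat cell formation, and another kind, marked by F3 (CD142), has been described as restraining adipogenesis.

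Interstitial progenitors numbered 915 and 953 in SD, 2768 and 637 in mCherry HFD, 2350 and 300 in Tert HFD, and 1725 and 616 in TertCi HFD. Their UMIs summed to between 920807 (Tert HFD mouse rep136) and 23202987 (mCherry HFD mouse rep128), out of library totals of 23378488 to 139749876. The median interstitial progenitor held 2042 to 6481.5 UMIs, 1.199 to 1.71 times the median other progenitor of the same mouse. Levels below are CPM, the UMIs of a gene per 1e6 UMIs of the summed interstitial progenitors of a mouse. Levels of different genes are not compared because a nuclear count also depends on gene length. The edgeR fold changes below also use a scaling factor per mouse (TMM), while CPM do not. The factors were 0.899 and 0.997 in SD, 1.16 and 1.13 in mCherry HFD, 1.06 and 0.917 in Tert HFD, and 0.952 and 0.917 in TertCi HFD. Fold changes therefore differ from ratios of the CPM beside them.

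The library of mCherry HFD mouse rep128 stood apart. It held 21996 quality nuclei against 3233 to 13728 in the other libraries. A doublet score marked 32.4% of its interstitial progenitors against 3.33 to 14.0% in the other mice. The share of quality nuclei to mark was set beforehand, at 0.8% per 1000 quality nuclei of a library, and was 17.6% in mouse rep128. This preset share fixes how many nuclei of a library are marked, not which ones. Interstitial progenitors were marked more often than all quality nuclei in mCherry HFD mice rep128 (32.4 against 17.6%) and rep129 (9.73 against 3.64%). The same held for the SD and Tert HFD mice and TertCi HFD mouse rep140, and the reverse for TertCi HFD mouse rep138. The part of doublets in the contrasts was not tested beyond fits with marked doublets removed. Because of the size of the rep128 library, the counts of called genes over all genes are also given without this mouse. The counts by gene list and over free RNA are not given without it. Of all interstitial progenitors, 193 had a barcode that was also a quality nucleus of another library.

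RNA of other cells reached the interstitial progenitors, and its amount moved with the groups. By a set of macrophage genes, 39.3 and 43.3% of the interstitial progenitors of the mCherry HFD mice exceeded 20% of the median share in macrophage nuclei, against 16.7 and 7.87% in SD, 14.3 and 21% in Tert HFD, and 6.49 and 11.2% in TertCi HFD. This limit was itself lower in mCherry HFD, as the median share in macrophage nuclei was 3.64 and 3.54% there and 4.02 to 6.03% in the other 6 mice. In interstitial progenitors the median share was 0.389 and 0.544% in mCherry HFD and 0.243 to 0.401% in the other 6 mice, which overlapped. By a set of adipocyte genes the percent over the limit was 12.9 and 17.0% in SD, 1.05 and 3.14% in mCherry HFD, 3.96 and 19.7% in Tert HFD, and 4.29 and 7.79% in TertCi HFD. The 14 macrophage markers of the fixed list summed to 2910 and 2998 CPM in mCherry HFD and to 920 to 1631 CPM in the other 6 mice, and the 15 adipocyte markers to 405 and 564 CPM against 803 to 1619 CPM. In the free RNA, taken from barcodes with 10 to 100 UMIs, the same lists stood at 2003 to 6976 CPM and 1128 to 8065 CPM. At most 1 of the 14 macrophage markers and none of the 15 adipocyte markers was at 0 in any mouse. Lists for lymphatic, lymphocyte, mesothelial and mural cells summed to 4.34 to 34.8, 75.3 to 232, 73.8 to 475 and 137.6 to 455 CPM. The 10 endothelial markers summed to 477 to 655 CPM in the 4 mice with Tert or TertCi and to 350 to 407 CPM in the other 4 (free RNA 314 to 1176 CPM), and none was at 0. The 5 Schwann cell markers summed to 244 and 234 CPM in mCherry HFD and to 308 to 505 CPM in the other 6 mice, with up to 2 at 0. The selection rule had capped 3 of the macrophage, 3 of the adipocyte, 3 of the endothelial and 4 of the mesothelial markers, nuclei were not filtered on the others, and their part in the contrasts was not tested. Each contrast was therefore repeated on the interstitial progenitors that lay under both limits (56.0 to 89.6% of each mouse). These are called low-other-RNA nuclei below, and genes of the macrophage and adipocyte sets were left out of these fits. In them the 14 macrophage markers still summed to 863 and 1028 CPM in mCherry HFD, against 299 to 734 CPM in the other 6 mice. The 15 adipocyte markers summed to 296 and 317 CPM against 516 to 1136 CPM. The group difference in this RNA thus remained in these nuclei, and its part in calls kept there was not tested.

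**Figure D1:**
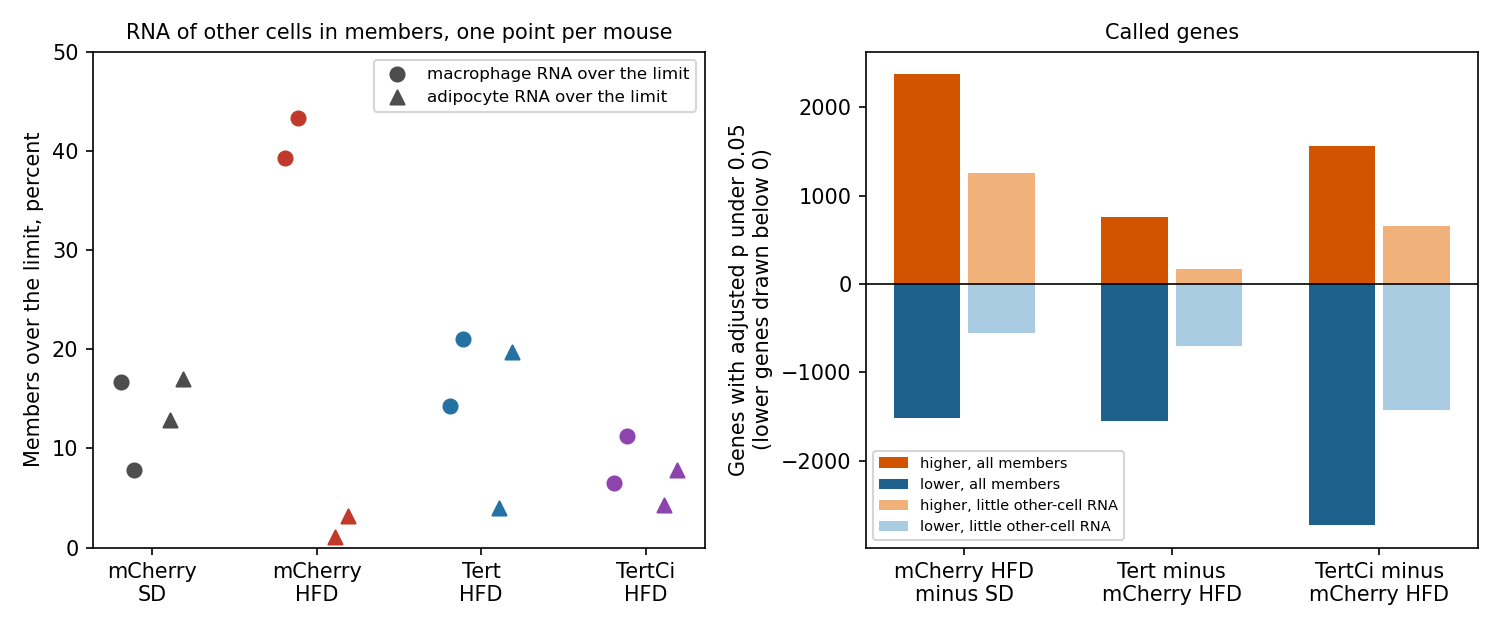
Left, percent of the interstitial progenitors (members) of each mouse over the macrophage limit (circles) and the adipocyte limit (triangles), by group; the mCherry HFD mice have the highest circles (39.3 and 43.3%) and the lowest triangles (1.05 and 3.14%). The macrophage limit follows the median share in the macrophage nuclei of each mouse, which was 3.64 and 3.54% in mCherry HFD and 4.02 to 6.03% in the other mice. Right, bars of the number of genes with adjusted p under 0.05 per contrast, higher genes above 0 and lower genes below, in all members (dark) and in the low-other-RNA nuclei (light), such as 2374 against 1256 higher genes for the diet.

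The targeted locus was close to the detection limit. Cdkn1a, which encodes the cell cycle inhibitor p21, was counted with 3 and 2 UMIs in SD, 239 and 24 in mCherry HFD, 45 and 1 in Tert HFD, and 5 and 4 in TertCi HFD. In CPM these were 1.15 and 0.612, 10.3 and 7.51, 3.83 and 1.09, and 0.844 and 1.56. It passed the test as higher in mCherry HFD than in SD (log2 fold change 3.13 ± 0.60 SE, edgeR adjusted p = 0.0037) and as lower in TertCi HFD than in mCherry HFD (-2.77 ± 0.54, adjusted p = 0.0037), but its free RNA level in the mCherry HFD mice, 29.6 CPM, was above its level in the nuclei. Tert was counted with 10 and 9, 158 and 17, 47 and 3, and 14 and 3 UMIs in the same order of groups, or 3.84 and 2.76, 6.81 and 5.32, 4.00 and 3.26, and 2.36 and 1.17 CPM. Its level in the Tert HFD mice did not exceed that in the mCherry HFD mice (-0.55 ± 0.42, adjusted p = 0.42), and in the TertCi HFD mice it was lower (-1.41 ± 0.46, adjusted p = 0.039). Whether these counts come from the inserted or the resident gene was not tested. mCherry had 7 UMIs in mouse rep128, 1 each in mice rep146 and rep134, and 0 in the other 5, which allows up to 4.01 CPM in the shallowest of these (exact Poisson 95% limit).

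The levels of the rule's own genes describe the selection and say nothing about the label. Pi16 stood at 73.0 and 61.5 CPM in SD, 80.2 and 56.3 in mCherry HFD, 88.7 and 56.5 in Tert HFD, and 78.5 and 23.3 in TertCi HFD. TertCi HFD mouse rep140 was the lowest, and the groups overlapped. Dpp4, a cell surface peptidase, ranged from 251 to 367 CPM, Sema3c from 793 to 1185 CPM, Efhd1, a mitochondrial calcium-binding protein gene, from 53.5 to 107 CPM, and Creb5, a transcription factor gene, from 1340 to 2103 CPM. Anxa3, an annexin gene, ranged from 242 to 440 CPM, near its free RNA level of 148 to 288 CPM. The progenitor gene Col3a1, a fibrillar collagen, showed a wider range: 651 and 733 CPM in SD, 1966 and 1886 in mCherry HFD, 1434 and 989 in Tert HFD, and 755 and 894 in TertCi HFD. Both mCherry HFD mice lay above all other mice. The rule reads Col3a1 against macrophage genes, free RNA of Col3a1 stood at 1092 CPM in mCherry HFD and at 266 to 447 CPM in the other groups, and it was detected in 50.9 and 52.2% of the macrophage nuclei of mCherry HFD against 8.91 to 28.3% in the other mice. The part of the rule and of free RNA in this difference was not tested. Pdgfra, the receptor gene that marks the lineage, ranged from 169 to 299 CPM.

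The 6 programme genes differed in how often a nucleus showed a UMI of them, which also depends on depth. After each nucleus was thinned to 1000 UMIs, Pi16 was detected in 3.73 to 9.53% of interstitial progenitors, against 0.251 to 1.32% of macrophage nuclei, which should lack it. Dpp4 was detected in 23.7 to 34.5% (macrophage nuclei 2.01 to 3.95%), Sema3c in 40.5 to 62.6% (2.32 to 10.9%), Creb5 in 59.1 to 71.5% (11.6 to 18.3%) and Efhd1 in 6.12 to 11.7% (0 to 0.504%). Both Pi16 and Dpp4 were detected in 0.649 to 4.24% of interstitial progenitors at 1000 UMIs, and both Sema3c and Creb5 in 33.1 to 46.2%. Unthinned, Pi16 was detected in 8.44 to 32.0% and Dpp4 in 46.6 to 63.3%, with macrophage nuclei at 1.21 to 3.59% and 4.30 to 12.1%. Median depth was 1860.5 to 3893 UMIs in macrophage nuclei. Anxa3 separated least, with 26.3 to 33.7% of interstitial progenitors and 10.8 to 21.2% of macrophage nuclei.

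The label was checked on markers that the rule did not read. Because a nucleus with more UMIs passes the rule more easily, 1000 UMIs of a progenitor were used to count its programme genes and only the remaining UMIs to give levels, and progenitors with fewer than 500 remaining UMIs were left out. This gave 4922 nuclei with 0 programme genes, 4337 with 1, 2402 with 2 and 2653 with 3 or more, over 8 mice. These classes are not the interstitial and other progenitors, which are set on all UMIs. Mouse rep128 had 1675 and 1072 nuclei with 0 and 1 here, but 534 and 875 progenitors with 0 and 1 in all UMIs. The lower classes thus also hold interstitial progenitors, and the levels describe the ends of the scale rather than all 10264 nuclei. From 0 to 3 or more programme genes, the mean held-out level of Cd55, a complement-regulating surface protein gene known from interstitial progenitors, went from 70.5 to 721 CPM, and that of Limch1, a gene of an actin-binding protein, from 73.3 to 1025 CPM. The programme genes Pi16 (14.2 to 128.5 CPM) and Dpp4 (63.0 to 598 CPM) went the same way, as the rule reads them in the other UMIs of the same nuclei. Pcolce2, which aids collagen processing, went from 68.8 to 257 CPM, the microfibril gene Mfap5 from 136.001 to 420 CPM, and Ugdh, which makes a precursor of hyaluronan, from 39.5 to 155 CPM. Each was higher in 8 of 8 mice. Wnt2 was low throughout (3.42 and 14.0 CPM), and Bmp7 went from 1.48 to 28.8 CPM but was higher in 7 of 8 mice. Of 19 interstitial genes outside the rule with at least 10 CPM, 11 were higher in all 8 mice and 0 lower (median ratio 3.09). Over all 9577 genes outside the rule at that level, 660 were higher (6.89%) and 1043 lower (10.9%) in all 8 mice, with a median ratio of 0.947, and the counts by list below are to be read against these.

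Many markers of committed preadipocytes and of macrophages, adipocytes and mural cells went down along the same scale. Of 10 macrophage markers 6 were lower in all 8 mice (median ratio 0.497), of 12 adipocyte markers 6 (0.560) and of 7 mural markers 4 (0.223). Endothelial markers had 1 higher and 1 lower of 5 (0.666), and of 3 mesothelial markers 0 were higher or lower in all 8 mice (1.60). Their part in the levels below was not tested. Of 13 committed preadipocyte genes 10 were lower in all 8 mice and 0 higher (median ratio 0.457). Pparg went from 500 to 201 CPM (it was detected in 15.5 to 28.0% of interstitial progenitors and 27.9 to 36.4% of macrophage nuclei at 1000 UMIs), the basement membrane collagen gene Col15a1 from 311 to 82.7 CPM and Icam1, an adhesion molecule gene, from 25.6 to 12.7 CPM. F3 went from 113 to 41.4 CPM and the matrix protein gene Mgp from 80.6 to 18.0 CPM, and of 10 genes of that kind 4 were lower in all 8 mice. Guidance genes were split, with 6 higher and 9 lower of 29: the semaphorin gene Sema3e went from 20.5 to 583 CPM and the Slit receptor gene Robo1 from 236 to 908 CPM, while the ephrin receptor gene Epha3 went from 47.8 to 10.6 CPM. The 28 FGF, PDGF and IGF signalling genes had 3 higher and 9 lower in all 8 mice, with Fgf10 (118 to 32.1 CPM) and Igf1 (266 to 105.1 CPM) among the lower. The 26 TGF-beta and BMP signalling genes had 7 higher and 6 lower, and the ligand gene Bmp6 went from 102 to 628 CPM. Of 15 complement genes 8 were lower and 1 higher, with C7 going from 909 to 249 CPM. These are levels in classes made by the rule and carry no test.

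**Figure D2:**
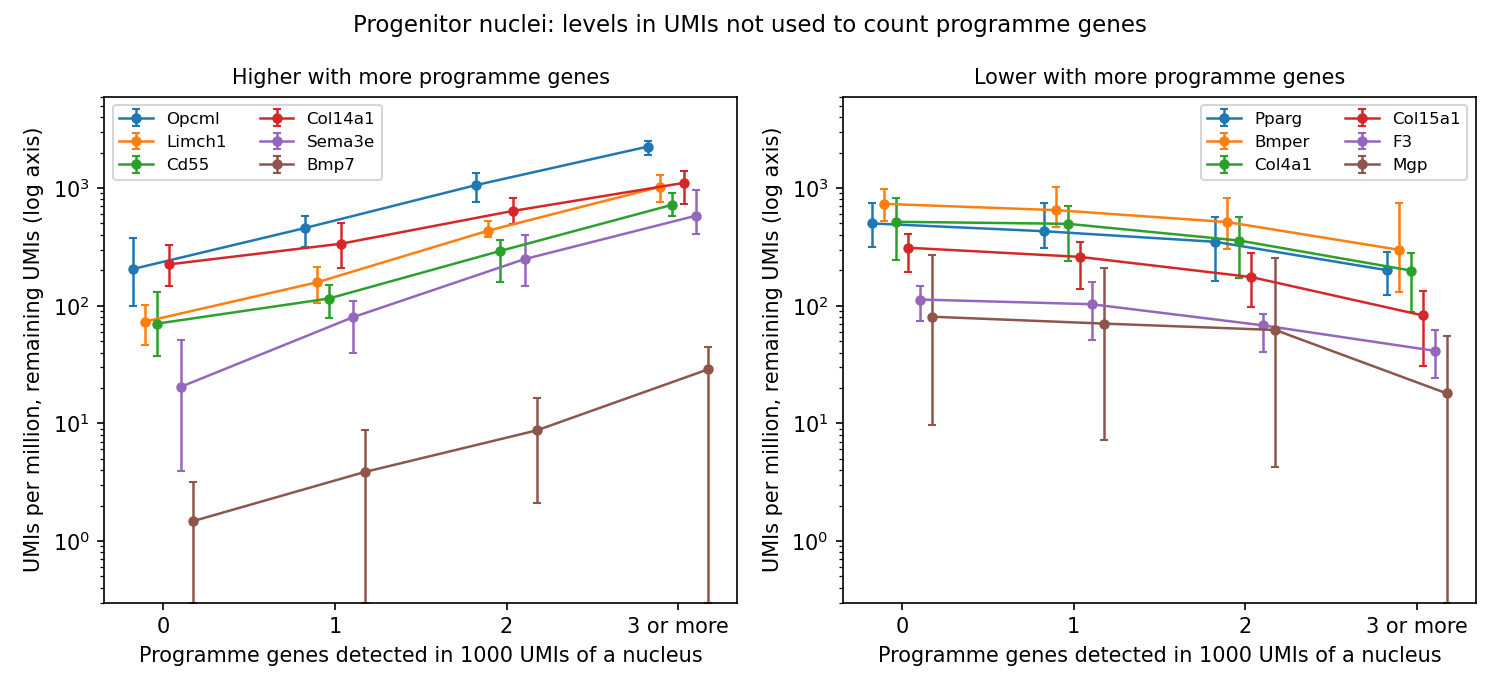
Held-out levels of genes outside the rule by number of programme genes (0, 1, 2, and 3 or more), in CPM on a log axis. Points are means over 8 mice and bars run from the lowest to the highest mouse (a bar that reaches the bottom of the axis ends at 0); Cd55 rises from 70.5 to 721 CPM and Pparg descends from 500 to 201 CPM.

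Interstitial and other progenitors were also compared directly, with the same caution that a nucleus enters the class by its own counts. Only genes outside the rule and above a minimum level were ranked, without predicted genes. Among these Adamts16, a secreted metalloprotease gene, had the highest ratio of interstitial to other progenitors, with means of 164 and 5.02 CPM. Dact2, a gene of a Dishevelled-binding protein, stood at 26.4 and 1.61 CPM, Sema3e at 244 and 21.1 CPM, Rgs6, a regulator of G protein signalling, at 576 and 68.6 CPM, and Opcml, a cell adhesion gene, at 1037 and 213 CPM. Each of these 5 genes was higher in the interstitial progenitors of 8 of 8 mice. These values describe the population chosen by the rule and were not tested.

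The share of interstitial progenitors did not separate the groups. Among quality nuclei it was 14.4% (95% Wilson interval 13.5 to 15.3) and 9.74% (9.17 to 10.3) in the SD mice, 12.6% (12.2 to 13.03) and 14.0% (13.1 to 15.1) in the mCherry HFD mice, 17.8% (17.2 to 18.5) and 9.28% (8.33 to 10.3) in the Tert HFD mice, and 12.6% (12.0 to 13.1) and 12.0% (11.1 to 12.9) in the TertCi HFD mice. The intervals cover counting error only. Group means were 12.1% ± 3.27 (SD, n = 2), 13.3% ± 1.03, 13.5% ± 6.03 and 12.3% ± 0.411, and the groups overlapped. An exact permutation test of the F statistic over the 4 groups, one-sided in F, gave p = 0.971 (adjusted 0.971 over 2 shares), where the smallest p this design allows is 0.00952. Among all progenitors the interstitial share was 63.3 and 57.1%, 66.3 and 55.3%, 67.8 and 45.9%, and 56.5 and 56.4% in the same order (exact permutation p = 0.962, adjusted 0.971). When every nucleus was thinned to 1000 UMIs, the group means of the share among quality nuclei were 5.55, 5.39, 6.30 and 5.33%. With a depth threshold set per library, the mean was 11.9% in SD and 21.1% in mCherry HFD (exact permutation p over 4 groups = 0.505, adjusted 0.981).

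On the high-fat diet, the interstitial progenitors of p21+/mCherry mice carried more RNA of the matrix genes Sned1 and Postn and of the costimulatory ligand gene Cd80, and less of the receptor gene Chrm3 and of Dchs2, Amph and Abca8b. In edgeR's quasi-likelihood test on the summed counts, 3892 of 14917 genes differed between mCherry HFD and SD at a Benjamini-Hochberg adjusted p under 0.05 (26.1%), 2374 higher (15.9%) and 1518 lower (10.2%). Most of these calls, 3402, did not reach 2 times free RNA in the higher group, and neither did most genes: 1690 of all 14917 tested reached it. Groups that did not overlap were not counted over all genes. Among the called genes, 232 higher and 254 lower ones reached 2 times free RNA and had groups that did not overlap. With free RNA from barcodes of 100 to 500 UMIs these counts were 487 and 206, so that which direction holds more genes depends on that choice. Of the 232 and 254, 170 and 86 were also called in the low-other-RNA nuclei, where 1815 of 12514 genes were called (14.5%; 1256 higher, 10.0%, and 559 lower, 4.47%). Without mouse rep128 the count over all interstitial progenitors was 1353. Genes are named below from the called genes over free RNA with at least 50 CPM, by size of the fold change.

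Among the genes higher on the diet, Sned1, which encodes an extracellular matrix glycoprotein, stood at 54.6 and 96.5 CPM in SD, 285 and 534 in mCherry HFD, 169 and 123 in Tert HFD, and 64.6 and 66.5 in TertCi HFD. Both mCherry HFD mice lay above the other 6. Its log2 fold change was 2.18 ± 0.33 (SE, edgeR adjusted p = 0.00274), and it overlaps Mterf4 on the opposite strand. Postn, which encodes the matricellular protein periostin, stood at 79.2 and 127, 440 and 364, 223 and 148, and 120 and 210 CPM in the same order of groups. Again the mCherry HFD mice were the highest, and the fold change was 1.71 ± 0.29 (adjusted p = 0.00372). Cd80, known as a ligand of T cell costimulation, was at 20.7 and 29.1, 87.4 and 90.1, 38.1 and 19.5, and 20.6 and 29.2 CPM, again highest in both mCherry HFD mice (1.57 ± 0.25 over SD, adjusted p = 0.00164). Cmya5, a gene best known from striated muscle, was at 10.8 and 14.4, 58.4 and 58.2, 21.6 and 15.2, and 18.9 and 24.5 CPM (1.94 ± 0.24, adjusted p = 0.000363). These 4 genes kept their call in the low-other-RNA nuclei, with adjusted p between 0.000173 and 0.00258, and without any single mouse.

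Fam227b rose from 1.15 and 7.35 CPM in the SD mice to 87.9 and 95.8 CPM in mCherry HFD (4.10 ± 0.61, adjusted p = 0.00266; 5.90 without mouse rep146 and 3.43 without mouse rep144), and was at 2.17 to 13.01 CPM in the 4 mice with Tert or TertCi. Pard3bos1 rose from 7.30 and 18.4 to 197 and 197 CPM (3.66 ± 0.65, adjusted p = 0.00957), a call that ended without mouse rep144, rep128 or rep129 (adjusted p up to 0.0880); its value was 4.36 without mouse rep146. Both are uncertain by position. In the mouse GENCODE annotation Fam227b overlaps Fgf7 and Galk2 on the opposite strand, and Pard3bos1 lies opposite Pard3b; how strand entered the counting is not given in the sources used here. Fgf7 itself did not pass (0.01, adjusted p = 0.984) and Pard3b fell (-0.78, adjusted p = 0.0037; 0.0901 in the low-other-RNA nuclei). The retinoic acid synthesis gene Aldh1a3 (1.35 ± 0.41) and the LIM-domain gene Fhl2 (1.31 ± 0.37) had adjusted p = 0.0436 and 0.0345, which rose to 0.230 and 0.202 at most when 1 mouse was left out; Aldh1a3 was lost without any of 6 mice (rep144, rep146, rep128, rep129, rep138, rep140) and Fhl2 without any of 5 (rep144, rep146, rep128, rep138, rep140).

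Lower on the diet was Chrm3, which encodes the muscarinic acetylcholine receptor M3, at 212 and 307 CPM in SD, 58.4 and 54.8 in mCherry HFD, 212 and 323 in Tert HFD, and 230 and 239 in TertCi HFD. The mCherry HFD mice were the lowest of all (-2.45 ± 0.25, adjusted p = 0.000181). Dchs2, a large cadherin gene of planar cell polarity, was at 141 and 165, 49.7 and 59.8, 221 and 257, and 293 and 288 CPM, lowest in the mCherry HFD mice and highest in the TertCi HFD mice (-1.76 ± 0.17, adjusted p = 0.000115). Amph, the endocytosis gene amphiphysin, was at 86.5 and 97.1, 24.6 and 30.7, 82.7 and 92.3, and 134.1 and 122 CPM (-2.03 ± 0.18, adjusted p = 6.9e-05). Abca8b, a lipid transporter gene, was at 223 and 312, 97.4 and 79.8, 209 and 195, and 299 and 302 CPM (-1.85 ± 0.16, adjusted p = 5.37e-05). For all 4 genes both mCherry HFD mice lay below the other 6.

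The remaining named genes of this direction were the Ras exchange factor gene Rasgrf1 (-2.39 ± 0.32), the endoplasmic reticulum gene Rtn1 (-1.60 ± 0.17), the aldehyde oxidase gene Aox3 (-1.56 ± 0.20) and the retrotransposon-derived gene Rtl4 (-4.49 ± 0.84). Rasgrf1 was lower in all 6 high-fat mice than in both SD mice, with 87.2 and 83.0 CPM in SD and 18.3 to 44.9 CPM in the 6 high-fat mice. Rtl4 was at 122 and 207 CPM in SD, 9.61 and 6.89 in mCherry HFD, 30.7 and 36.9 in Tert HFD, and 162 and 29.6 in TertCi HFD. Its call (adjusted p = 0.0153) ended in the low-other-RNA nuclei (-3.82, adjusted p = 0.0748) and without mouse rep144, rep146, rep128, rep129, rep134 or rep136 (up to 0.150). The other 3, with Chrm3, Dchs2, Amph and Abca8b, kept their call in the low-other-RNA nuclei and without any single mouse.

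**Figure D3:**
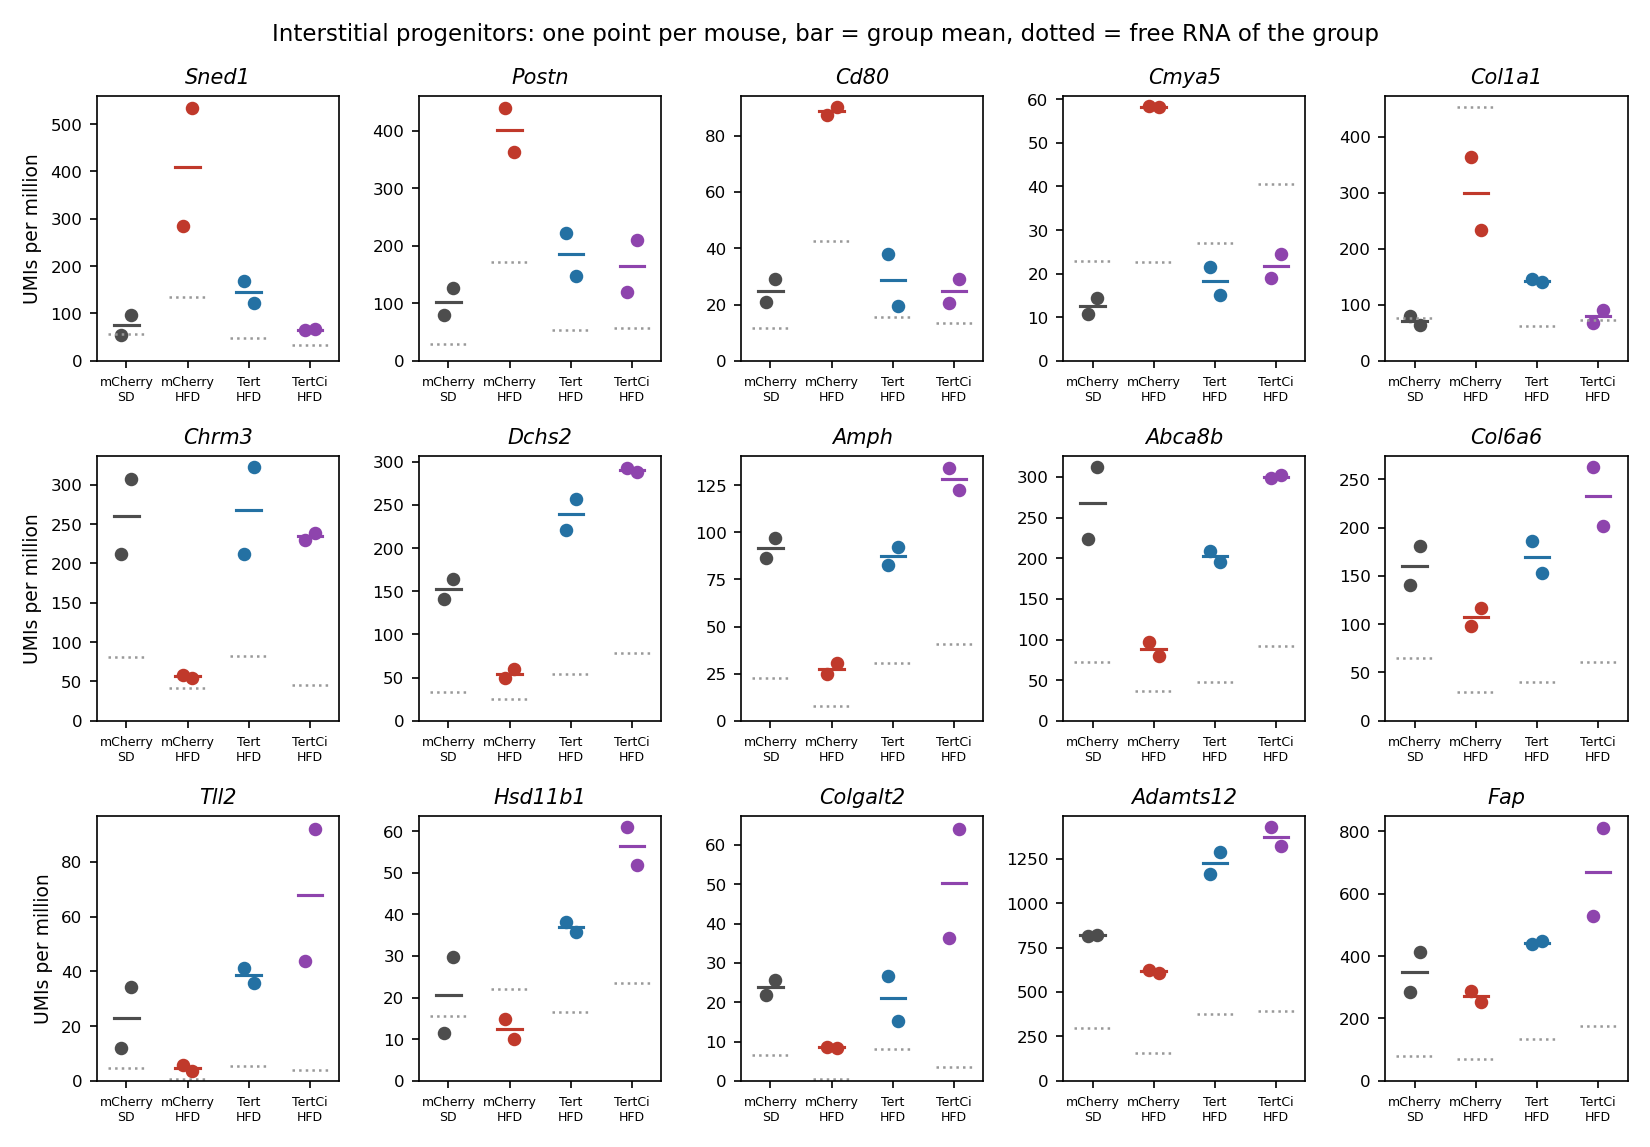
Levels of 15 genes in the interstitial progenitors of each mouse, in CPM from 0, by group. Points are mice, bars are group means, and dotted lines give the group's free RNA level; Sned1, Postn, Cd80 and Cmya5 are highest in the 2 mCherry HFD mice, while Chrm3, Dchs2, Amph and Abca8b are lowest there.

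The counts by gene list are to be read against the 15.9% of all genes that were higher and the 10.2% that were lower on the diet, or 10.0% and 4.47% in the low-other-RNA nuclei. Of 14 fibrillar and matrix collagen genes tested, 2 rose and 1 fell, with a median log2 fold change of 0.20 against 0.04 over all genes. Col1a1 was at 80.3 and 63.1 CPM in SD, 365 and 233 in mCherry HFD, 146.002 and 140.1 in Tert HFD, and 68.3 and 91.4 in TertCi HFD (1.79 ± 0.25, adjusted p = 0.000884), while its free RNA level in the mCherry HFD mice was 453 CPM. Col1a2 rose likewise (0.91 ± 0.16, adjusted p = 0.00259; free RNA 395 CPM). Col6a6, a collagen VI chain gene, fell, from 140.3 and 181 to 97.9 and 117 CPM (-0.85 ± 0.17, adjusted p = 0.00428). Of 26 matrix remodelling genes 4 rose and 4 fell (median 0.20), and of 21 elastic fibre and proteoglycan genes 4 rose and 3 fell (median -0.23). Among low-other-RNA nuclei the collagens gave 2 higher and 1 lower, the matrix remodelling genes 6 and 0, and the elastic fibre and proteoglycan genes 4 and 2. The protease inhibitor gene Timp1 rose (3.07 ± 0.37) from 1.54 and 2.76 to 23.1 and 20.97 CPM, below its free RNA level of 45.9 CPM in mCherry HFD, and the metalloprotease gene Adamts12 fell (-0.68 ± 0.15, adjusted p = 0.00722; -0.28, adjusted p = 0.339, in the low-other-RNA nuclei).

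Of the signalling lists, the Wnt list held no higher gene. None of 28 Wnt signalling genes rose and 10 fell (median -0.65), among them the ligand gene Wnt5b (-0.96 ± 0.18, from 40.3 and 44.4 to 28.4 and 23.2 CPM) and the receptor-degrading ligase gene Znrf3 (-1.05 ± 0.19). In the low-other-RNA nuclei the Wnt5b call was lost (-0.56, adjusted p = 0.0910), and 1 of 27 rose and 1 fell, both under the shares over all genes given above. Of 28 TGF-beta and BMP signalling genes 2 rose and 8 fell (median -0.44), with the BMP antagonist gene Chrdl1 (-2.29 ± 0.29) and the ligand gene Bmp4 (-1.33 ± 0.28) among the lower ones; the low-other-RNA counts were 1 and 4 of 27. Of 27 adipogenic transcription factor genes 2 rose and 12 fell (median -0.48; 2 and 4 of 25 in the low-other-RNA nuclei). Those that fell included Zeb1 (-0.82 ± 0.14) and Nfib (-0.75 ± 0.13), both lost in the low-other-RNA nuclei (adjusted p = 0.0669 and 0.0814), and Runx2, known from bone formation, rose (1.99 ± 0.18) from 31.9 and 30.9 to 159 and 139.9 CPM at a free RNA level of 118 CPM. Of 35 guidance genes of the semaphorin, ephrin, Slit and netrin families 3 rose and 8 fell (median -0.27), including the netrin gene Ntn1 (-1.03 ± 0.16), and in the low-other-RNA nuclei 2 and 4 of 31.

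Of 20 genes of the interstitial programme that the rule did not read, 2 rose and 4 fell with the diet (median 0.27), beside 26.1% of all genes called. Limch1 (-0.63 ± 0.19) and the collagen-processing gene Pcolce2 (-0.87 ± 0.19) were among those that fell, and neither call held in the low-other-RNA nuclei (adjusted p = 0.242 and 0.114). Cd248, which encodes the stromal surface protein endosialin, was at 9.61 and 12.9 CPM in SD, 54.9 and 23.8 in mCherry HFD, 24.1 and 8.69 in Tert HFD, and 10.3 and 4.28 in TertCi HFD (1.58 ± 0.49, adjusted p = 0.0405). It rose, at a free RNA level of 58.1 CPM in mCherry HFD, as did Ly6c1 (2.40 ± 0.61; free RNA 42.6 CPM), and both kept their call in the low-other-RNA nuclei. There 4 of the 20 rose and 0 fell. Of 14 committed preadipocyte genes 3 rose and 1 fell (median 0.25). The 3 that rose, Lpl, Cd36 and Apoe, are known also from macrophages and stood below 2 times free RNA. Among low-other-RNA nuclei 3 of 13 rose and 1 fell, with a median of 0.67; Apoe kept its call there and Lpl and Cd36 did not (adjusted p = 0.0685 and 0.326). Cell cycle genes gave 14 higher and 0 lower of 29 (median 1.13), which became 3 of 18 in the low-other-RNA nuclei, and no interferon-stimulated gene of 26 was called in the diet contrast (median 0.17). The part of macrophage RNA in these counts was not tested beyond these values.

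Compared with mCherry HFD, the interstitial progenitors of Tert HFD mice carried more RNA of Chrm3, Dchs2, Amph and Hmcn2 and less of Cmya5, Cd80 and Fam227b. Of 14917 genes, 2302 were called by edgeR (15.4%), 754 higher (5.05%) and 1548 lower (10.4%), and DESeq2 called 637 higher and 790 lower. Over all genes tested, called or not, 1976 reached at least 2 times free RNA in the higher group. Among the called genes 15.2% did so with groups apart, 214 of them higher and the rest lower (209 higher and 334 lower with free RNA from barcodes of 100 to 500 UMIs). Most calls, 1943, did not reach 2 times free RNA. Groups apart were not counted over all genes here either, so these counts have no background beside them. Of the 214 and of those lower, 48 and 99 were also called in the low-other-RNA nuclei. The count over all genes was 863 in those nuclei (6.90%; 166 higher, 1.33%, and 697 lower, 5.57%) and 397 without mouse rep128, 772 without mouse rep129 and 1214 without mouse rep136. All 3 contrasts share the mCherry HFD mice, so a gene that is high or low in these 2 mice enters each of them.

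For the genes with values given above, the Tert contrast was 2.43 ± 0.25 for Chrm3 (edgeR adjusted p = 0.000854), 2.34 ± 0.18 for Dchs2 (adjusted p = 0.000194) and 1.87 ± 0.19 for Amph (adjusted p = 0.000537). Hmcn2, which encodes the matrix protein hemicentin 2, was at 214 and 212 CPM in SD, 127 and 91.7 in mCherry HFD, 299 and 254 in Tert HFD, and 328 and 438 in TertCi HFD. The Tert HFD mice lay above the SD mice too (1.53 ± 0.19 over mCherry HFD, adjusted p = 0.00133). Sgip1, an endocytic adaptor gene, was at 43.8 and 53.6, 56.3 and 27.9, 110 and 109, and 140.4 and 135 CPM, with all 4 mice with Tert or TertCi above the other 4 (1.52 ± 0.26, adjusted p = 0.00547). It moved to 2.15 without mouse rep128. Vegfc, a growth factor gene of lymphatic vessels, was at 206 and 184, 142 and 86.7, 255 and 324, and 211 and 302 CPM (1.52 ± 0.29, adjusted p = 0.0109; 1.38, adjusted p = 0.104, in the low-other-RNA nuclei). Plcxd2, which encodes a phospholipase-like protein, was higher by 1.52 ± 0.28 (adjusted p = 0.00767).

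Lower in the Tert HFD mice, Cmya5 differed by -1.41 ± 0.23 (adjusted p = 0.0042), Cd80 by -1.32 ± 0.25 (0.00801) and Sned1 by -1.28 ± 0.32 (0.0334). The Cd80 call ended without mouse rep128 (adjusted p = 0.0501), and the Sned1 call without mouse rep129, rep134, rep136, rep138 or rep140 (up to 0.191). Fam227b (-2.99 ± 0.54, adjusted p = 0.012) lost its call without mouse rep128 or rep129 (up to 0.0880) and was -5.07 without mouse rep134. Pard3bos1 (-2.49 ± 0.60, adjusted p = 0.0388) lost it without mouse rep144, rep146, rep128, rep129, rep136, rep138 or rep140 (up to 0.220) and was -4.38 without mouse rep134.

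Compared with mCherry HFD, the interstitial progenitors of TertCi HFD mice carried more RNA of Tll2, Colgalt2, Hsd11b1 and again of Dchs2, Amph and Chrm3, and less of Sned1, Cd80 and Fam227b. Of 14917 genes, 4283 were called (28.7%), 1557 higher (10.4%) and 2726 lower (18.3%). Over all genes tested, called or not, 2008 reached at least 2 times free RNA in the higher group. Most calls, 3602, did not. With groups apart and at least 2 times free RNA there were 431 higher and 223 lower called genes (412 and 455 with free RNA from barcodes of 100 to 500 UMIs). Groups apart were again not counted over all genes, so these counts have no background beside them. Of the 431 and 223, 179 and 154 were also called in the low-other-RNA nuclei. There 2089 genes were called in all (16.7%; 660 higher, 5.27%, and 1429 lower, 11.4%). The count was 1469 without mouse rep128, 2528 without mouse rep129, 1839 without mouse rep138 and 2211 without mouse rep140.

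Tll2, a gene of the tolloid metalloproteases that process procollagen and BMP inhibitors, was at 11.9 and 34.3 CPM in SD, 5.90 and 3.44 in mCherry HFD, 41.3 and 35.8 in Tert HFD, and 43.9 and 92.2 in TertCi HFD. Each mouse with Tert or TertCi lay above the other 4 (3.99 ± 0.53 for TertCi, edgeR adjusted p = 0.00182, and 3.38 without mouse rep140). Colgalt2, which encodes a collagen galactosyltransferase, was at 21.9 and 25.7, 8.66 and 8.45, 26.7 and 15.2, and 36.3 and 64.2 CPM (2.82 ± 0.31, adjusted p = 0.000241). Hsd11b1, which encodes the enzyme that reactivates glucocorticoids, was at 11.5 and 29.7, 14.7 and 10.0, 38.2 and 35.8, and 61.1 and 51.7 CPM (2.42 ± 0.32, adjusted p = 0.000613), and overlaps Lamb3 on the opposite strand. Smpd3, a sphingomyelinase gene that overlaps Prmt7 on the opposite strand, was at 254 and 232, 177 and 144.3, 568 and 278, and 468 and 829 CPM (2.30 ± 0.35, adjusted p = 0.00333; Tert contrast 1.59 ± 0.35, adjusted p = 0.0234, which was 1.55 at 0.0627 in the low-other-RNA nuclei, and lost without mouse rep144, rep146, rep128, rep129 or rep134 at up to 0.139). The TertCi HFD mice were highest for Colgalt2 and Hsd11b1.

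The genes shared with the contrasts above had TertCi values of 2.71 ± 0.18 for Dchs2 (adjusted p = 2.68e-05), 2.53 ± 0.18 for Amph (2.87e-05) and 2.33 ± 0.24 for Chrm3 (0.000264). On the lower side they were -2.36 ± 0.33 for Sned1 (0.00194), -1.58 ± 0.25 for Cd80 (0.00142), -1.16 ± 0.22 for Cmya5 (0.0034, and 0.0590 without mouse rep138), -3.65 ± 0.56 for Fam227b (0.003, with -4.38 without mouse rep138) and -3.01 ± 0.60 for Pard3bos1 (0.0134, lost without mouse rep128, rep129, rep138 or rep140 at up to 0.105, with -3.90 without mouse rep138). Postn (-1.01 ± 0.28, adjusted p = 0.0286) and the oxysterol hydroxylase gene Cyp7b1 (-0.83 ± 0.21, 0.0148) lost their call without mouse rep128, rep129 or rep138, at up to 0.170 and 0.149. The prostaglandin transporter gene Slco2a1 was at 52.6 and 122 CPM in SD, 58.3 and 50.1 in mCherry HFD, 42.8 and 53.2 in Tert HFD, and 22.1 and 21.8 in TertCi HFD (-1.03 ± 0.32, adjusted p = 0.0373, lost without mouse rep128, rep129, rep138 or rep140 at up to 0.188). Rtl4 (3.77 ± 0.82, adjusted p = 0.0233) was 2.09 without mouse rep138 and 4.50 without mouse rep140, and was lost in the low-other-RNA nuclei (2.90, adjusted p = 0.122) and without mouse rep144, rep146, rep128, rep129, rep134 or rep136 (up to 0.186). By the naming rule 5 genes were higher on the diet and lower in both other contrasts (Sned1, Cd80, Cmya5, Fam227b and Pard3bos1), and 3 were lower on the diet and higher in both (Chrm3, Dchs2 and Amph). Genes eligible for naming in the diet, Tert and TertCi contrasts numbered 14, 5 and 9 for the first pattern and 140, 145 and 261 for the second. Since each contrast uses the same mCherry HFD mice, this overlap is in part built in and is no separate support.

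No gene of 14917 differed between Tert HFD and TertCi HFD in edgeR's test at an adjusted p under 0.05 (0% called), with 860 genes at an unadjusted p under 0.05. DESeq2 called 1 gene, St18, a zinc-finger transcription factor gene (1.25, adjusted p = 0.00676), with 399 at an unadjusted p under 0.05, and edgeR without a filter on low counts called 88. Interstitial progenitors over the macrophage limit were 14.3 and 21% in Tert HFD and 6.49 and 11.2% in TertCi HFD. The part of macrophage RNA in the St18 call was not tested. In the low-other-RNA nuclei edgeR called 0 of 12514 genes. The smaller count of called genes in the Tert than in the TertCi contrast is thus not a tested difference between the 2 genotypes. Leaving out any 1 mouse gave 0 calls in this contrast.

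Over all genes, 5.05% were higher and 10.4% lower in the Tert contrast and 10.4% and 18.3% in the TertCi contrast. In the low-other-RNA nuclei these shares were 1.33% and 5.57%, and 5.27% and 11.4%, and the counts by list below are to be read against them. Of 28 TGF-beta and BMP signalling genes, 9 rose and 0 fell in the Tert contrast (median 0.32 against -0.07 over all genes) and 10 rose and 1 fell in the TertCi contrast (median 0.36 against -0.10). Of 28 Wnt genes, 5 rose and 3 fell (median 0.55) and 3 rose and 2 fell (0.39), and in the low-other-RNA nuclei 1 and 1, and 2 and 3, of 27. Wnt5b was at 61.8 and 44.5 CPM in Tert HFD and 62.3 and 59.5 in TertCi HFD, above both mCherry HFD mice (1.25 ± 0.18, edgeR adjusted p = 0.00271, and 1.51 ± 0.18, 0.000346). The lower Tert HFD mouse stood at about the level of the higher SD mouse. Adipogenic transcription factor genes gave 7 higher and 2 lower of 27 (median 0.50) and 11 higher and 3 lower (0.53), and the low-other-RNA nuclei 1 and 1, and 6 and 3, of 25. Zeb1 was among the higher genes in both (0.73 ± 0.14 and 1.00 ± 0.14), though its Tert call was lost in the low-other-RNA nuclei (0.42, adjusted p = 0.186). In the low-other-RNA nuclei the TGF-beta and BMP list had 0 higher and 1 lower, and 3 higher and 1 lower, of 27.

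Among matrix genes, Adamts12 was at 817 and 822 CPM in SD, 623 and 609 in mCherry HFD, 1166 and 1288 in Tert HFD, and 1427 and 1322 in TertCi HFD, with the 4 mice with Tert or TertCi above all others (1.204 ± 0.15, adjusted p = 0.0013, and 1.44 ± 0.15, 0.000181). The fibroblast protease gene Fap was at 284 and 412, 289 and 253, 437 and 449, and 530 and 812 CPM (0.91 ± 0.22 and 1.59 ± 0.22; Tert 0.62, adjusted p = 0.135, in the low-other-RNA nuclei). Col6a6 was at 186 and 153 CPM in Tert HFD and 262 and 202 in TertCi HFD (0.87 ± 0.17 and 1.40 ± 0.17; Tert 0.53, adjusted p = 0.0799, in the low-other-RNA nuclei). Col1a1 was lower in both contrasts (-0.87 ± 0.24, adjusted p = 0.0364, and -1.63 ± 0.24, 0.00129), as was Ltbp2, a gene of elastic fibres, at 6.15 and 8.88, 26.4 and 21.9, 3.83 and 4.34, and 6.75 and 3.11 CPM (-2.50 ± 0.38 and -1.92 ± 0.34). Collagens counted 3 higher and 1 lower of 14 for Tert (median 0.41) and 2 and 2 for TertCi (0.17), and matrix remodelling genes 4 and 3, and 4 and 5, of 26 (medians 0.09 and 0.01). Elastic fibre and proteoglycan genes, the list of Ltbp2, counted 1 and 1, and 5 and 6, of 21. In the low-other-RNA nuclei the collagens gave 0 higher and 1 lower, and 1 and 3, the matrix remodelling genes 1 and 2, and 2 and 6, and the elastic fibre genes 0 and 2, and 2 and 6.

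Of the 20 interstitial genes outside the rule, 1 rose and 0 fell in the Tert contrast (median -0.00) and 2 rose and 3 fell in the TertCi contrast (-0.21). Limch1, at 594 and 400 CPM in Tert HFD and 558 and 405 in the TertCi HFD mice against 339 and 342 in mCherry HFD, rose in both (0.74 ± 0.19 and 0.78 ± 0.19) but not in the low-other-RNA nuclei (adjusted p = 0.343 and 0.372). Cd248 fell in the TertCi contrast (-2.08 ± 0.49, adjusted p = 0.0129), as did Ly6c1 (-2.56 ± 0.59) and the hyaluronan synthase gene Has1 (-1.76 ± 0.57), and in the low-other-RNA nuclei 0 rose and 6 fell. The insulin-like growth factor receptor gene Igf1r, from a list with 3 higher and 5 lower of 30 for Tert and 5 and 7 for TertCi, was at 530 and 584, 380 and 337, 613 and 509, and 713 and 614 CPM (0.84 ± 0.13 and 1.17 ± 0.13). That list gave 1 and 3, and 2 and 5, of 29 in the low-other-RNA nuclei. Guidance genes gave 6 higher and 1 lower of 35, and 7 and 3, and in the low-other-RNA nuclei 2 and 0, and 2 and 0, of 31. Ntn1 was at 183 and 207, 118 and 111, 250 and 161, and 232 and 208 CPM, lowest in the mCherry HFD mice (1.05 ± 0.16 and 1.22 ± 0.16). Complement genes counted 0 higher and 5 lower of 17 for Tert (median -0.41) and 0 and 9 for TertCi (-0.58), and immediate early genes 0 and 2, and 0 and 7, of 16 (-0.71 and -1.23). Complement genes gave 0 and 3, and 0 and 6, of 16 in the low-other-RNA nuclei (medians -0.37 and -0.80), and immediate early genes 0 and 0, and 0 and 5, of 15. The complement genes C1qa and C1qb, which macrophages express, lay under 2 times free RNA, and the part of macrophage RNA in these lists was not tested beyond these values.

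Some diet and genotype differences were not equal in the 2 progenitor populations. The difference between the contrast in interstitial and in other progenitors was tested in 1 fit with the mouse as a block, since both sums come from the same animal. For the diet 96 of 15664 genes differed (0.613%), 78 toward higher values in interstitial progenitors (0.498%) and 18 toward lower ones (0.115%). For Tert there were 31 (0.198%), 7 higher (0.0447%) and 24 lower (0.153%), and for TertCi 55 (0.351%), 13 higher (0.0830%) and 42 lower (0.268%). In the low-other-RNA nuclei, with 12778 genes tested, the diet gave 187 (1.46%; 1.03% higher and 0.430% lower), Tert 54 (0.423%; 0.141% and 0.282%) and TertCi 114 (0.892%; 0.266% and 0.626%). Without mouse rep128 the counts were 79, 31 and 75, of which 49, 13 and 33 were among the genes called with it. Without the block none was called in any of the 3. The counts were 17, 4 and 16 with DESeq2 and 37, 15 and 17 at the library depth threshold. The split by detected genes depends on depth. The median interstitial progenitor held 2042 and 2789 UMIs in SD, 6481.5 and 3537 in mCherry HFD, 3847 and 2074 in Tert HFD, and 2897 and 3043.5 in TertCi HFD. The part of depth in these differences was not tested beyond these values.

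Scara5, a ferritin receptor gene, was at 620 and 423 CPM in the interstitial progenitors of the SD mice and 346 and 404 in those of the mCherry HFD mice. In other progenitors it was at 525 and 363 CPM and at 150 and 153 CPM, so that the lower level on the diet was less marked in interstitial progenitors (difference of log2 fold changes 1.11 ± 0.12, adjusted p = 2.11e-08). Ltbp1, which encodes a binding protein of latent TGF-beta, was at 634 and 634, and 446 and 452 CPM in interstitial progenitors, and at 606 and 633, and 240 and 223 CPM in other progenitors (0.97 ± 0.12, adjusted p = 1.06e-07). Adamts19, a metalloprotease gene, was at 108 and 64.6, and 32.6 and 43.2 CPM against 76.4 and 41.1, and 4.51 and 8.40 CPM (2.19 ± 0.28, adjusted p = 5.44e-07). Pappa, a protease gene that releases insulin-like growth factors from a binding protein, was at 28.0 and 87.0, and 70.6 and 62.6 CPM against 74.6 and 197, and 46.2 and 60.2 CPM (1.73 ± 0.20, adjusted p = 6.87e-08). For Pappa the SD and mCherry HFD mice overlapped in interstitial progenitors and did not in other progenitors. The same test gave 1.48 ± 0.15 for Opcml (adjusted p = 1.75e-06; 1.51, adjusted p = 0.11, in the low-other-RNA nuclei) and -0.86 ± 0.19 for Aspn, a proteoglycan gene that overlaps Cenpp on the opposite strand (0.0128, lost without mouse rep146 or rep128 at up to 0.959).

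Between the high-fat groups, Piezo2, which encodes a mechanically gated ion channel, differed toward interstitial progenitors in both contrasts. In interstitial progenitors it was at 103 and 69.2 CPM in mCherry HFD, 92.6 and 40.2 in Tert HFD, and 52.0 and 64.6 in TertCi HFD. In other progenitors it was at 179 and 142, 64.8 and 22.5, and 23.1 and 20.5 CPM. The groups overlapped for Tert in the former and did not in the latter (difference 1.41 ± 0.19 for Tert, adjusted p = 3.39e-06, and 0.0852 without mouse rep134; 2.15 ± 0.20 for TertCi, adjusted p = 8.97e-11). In the opposite direction, Pappa differed by -1.69 ± 0.21 (Tert, adjusted p = 4.7e-07) and -1.80 ± 0.20 (TertCi, 1.51e-08) and Ltbp1 by -0.76 ± 0.12 (9.98e-05) and -0.88 ± 0.11 (7.14e-07). Scara5 differed by -0.95 ± 0.12 for TertCi (6.41e-07).

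Further named differences for Tert were -1.15 ± 0.18 for Vit, the matrix gene vitrin (adjusted p = 0.000123, and 0.196 without mouse rep134), -1.21 ± 0.21 for the aminopeptidase gene Lvrn (0.000779, and 0.326 without mouse rep128; -1.80 without mouse rep134) and -1.18 ± 0.16 for Opcml (0.00017; -1.32, adjusted p = 0.399, in the low-other-RNA nuclei). For TertCi they were -0.87 ± 0.14 for the transporter gene Abca6 (0.000109), -1.19 ± 0.18 for the adhesion gene Lsamp (2.87e-05; 0.155 without mouse rep128, and -0.65, adjusted p = 0.163, in the low-other-RNA nuclei) and 1.49 ± 0.27 for the cytokine gene Il33 (0.0017, and up to 0.189 without mouse rep128 or rep138). Smpd3 gave 0.98 ± 0.17 for Tert (0.64, adjusted p = 0.756, without mouse rep134) and 1.41 ± 0.16 for TertCi, and the sign turned in the low-other-RNA nuclei (-0.51 and -0.27, both adjusted p = 1). With DESeq2, 5 of the 6 named differences for the diet, 3 of 7 for Tert and 6 of 8 for TertCi kept their call. Those lost were Aspn for the diet, Smpd3, Ltbp1, Vit and Lvrn for Tert (adjusted p = 0.629, 0.215, 0.215 and 0.326), and Il33 and Abca6 for TertCi (0.563 and 0.0868).

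**Figure D4:**
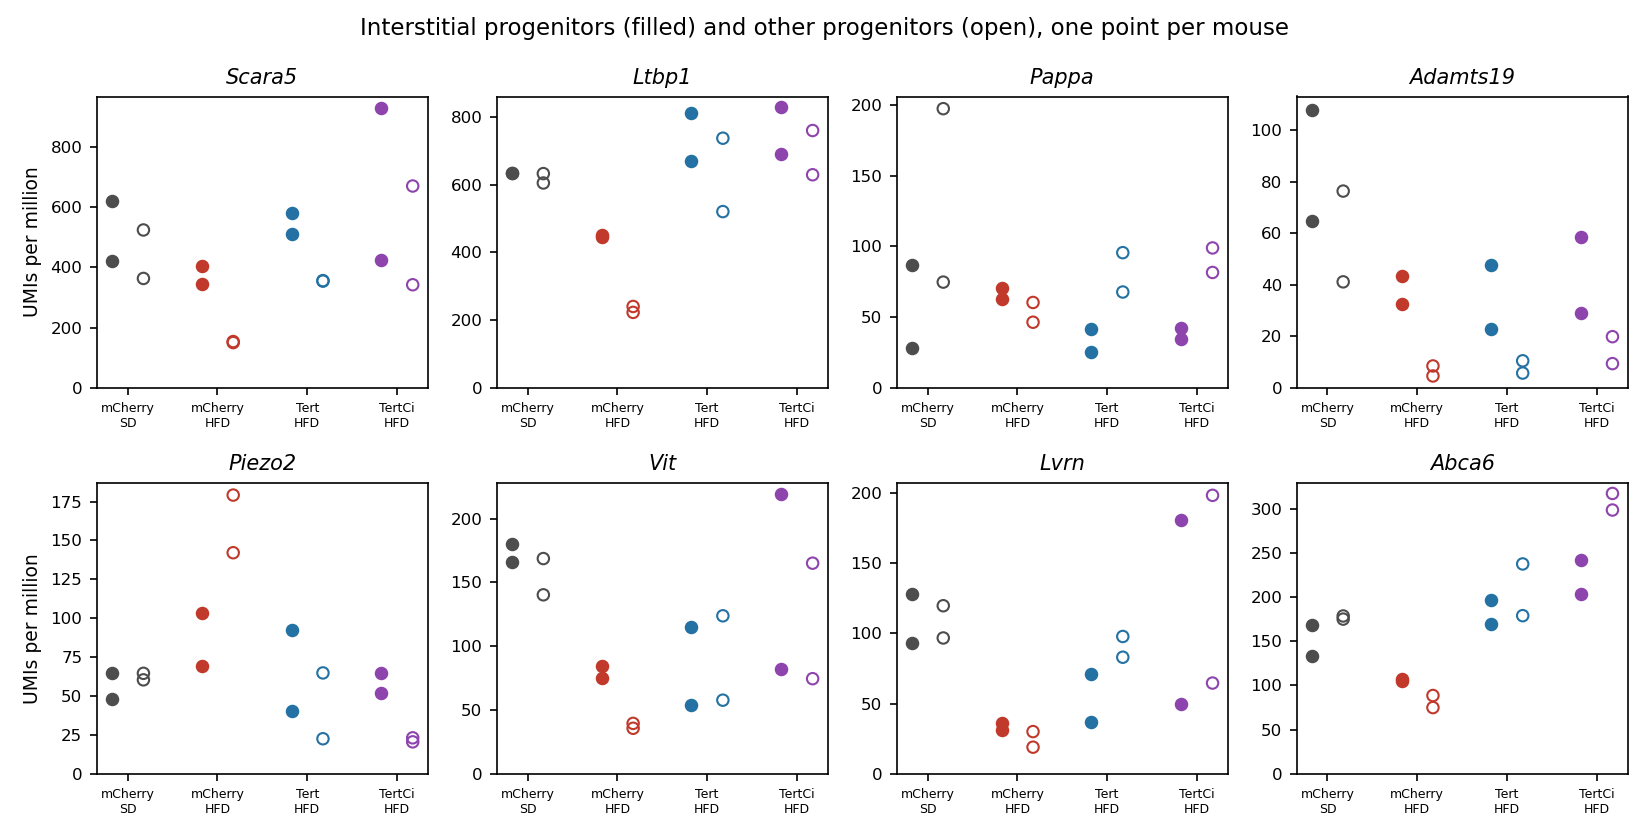
Levels of 8 genes by mouse in interstitial progenitors (filled) and other progenitors (open), in CPM. In the mCherry HFD mice Scara5 is at 346 and 404 CPM in interstitial and at 150 and 153 CPM in other progenitors, and Piezo2 at 103 and 69.2 against 179 and 142 CPM.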

How the data were processed

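The deposited files hold raw UMI counts per gene and barcode for 8 libraries of nuclei. Per the file headers, the authors' matrices came from Cell Ranger 7.1.0, while the submitters' processing notes name Cell Ranger 5.0.1, bcl2fastq 2.20.0 and the build mm39. Annotation, strand setting and intronic counting are not given in the sources used here. Per the labels' protocols, tissue was processed 2 samples at a time, without saying which. The design text speaks of stromal cells and the labels of nuclei; the labels were followed.

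Counts of interstitial progenitors were summed per mouse and fitted with edgeR 4.0.16 (R 4.3.3; quasi-likelihood, TMM, all 4 groups in 1 fit, expression filter), without the 25 genes of the rule, with Benjamini-Hochberg adjustment over all genes tested and a threshold of 0.05. Differences from other progenitors were fitted with the mouse as a block, since both sums come from the same animal. Depth was 23378488 to 139749876 UMIs per library. Nothing in the labels says more than that the 8 samples are separate mice. Where 1 mouse was left out, the lone mouse of a group is assumed to vary like the other groups.

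Named genes were, per contrast and direction, the 8 with the largest fold change among called genes with groups apart, at least 50 CPM in the higher group and at least 2 times the free RNA (barcodes of 10 to 100 UMIs); for the differences between populations, up to 5 by p. Predicted genes were left out. From each gene list, members with the smallest p were named, and a few more list members were chosen after their values were seen. The latter are not marked in the text, so a named member is not to be read as standing for its list. The members, gene lists and tests were chosen with earlier results of these data known. For the held-out levels, 1000 UMIs of each nucleus decided its class and the remaining UMIs gave the level. Doublets were scored with scanpy 1.11.5 (Scrublet) and not removed, except in an alternative. Alternatives were DESeq2 1.42.0, no expression filter, a library depth threshold, thinning, doublet removal, at least 3 programme genes and leaving out each mouse. The low-other-RNA nuclei, removal of shared barcodes, a free RNA window of 100 to 500 UMIs and the held-out levels were chosen after seeing the data. The fits were also run on simulated counts, and the outcome is not given here. Those counts had the same spread for every gene, no effect of the mouse, no RNA of other cells and no split by depth. The simulation therefore cannot speak to these features of the data. Python 3.11.15, numpy 2.4.6, scipy 1.17.1 and matplotlib 3.10.9 were used.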

Additional observations from a re-analysis of the deposited data

Results flagged for a closer look

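The following differences between the contrast in interstitial progenitors and the same contrast in other progenitors passed the test of the difference itself, and are given as log2 differences with no explanation. For the diet they were 1.11 for Scara5, 1.73 for Pappa, 0.97 for Ltbp1, 2.19 for Adamts19, 1.48 for Opcml and -0.86 for Aspn. For Tert they were 1.41 for Piezo2, 0.98 for Smpd3, -1.69 for Pappa, -0.76 for Ltbp1, -1.15 for Vit, -1.18 for Opcml and -1.21 for Lvrn. For TertCi they were 2.15 for Piezo2, 1.41 for Smpd3, 1.49 for Il33, -1.80 for Pappa, -0.95 for Scara5, -0.88 for Ltbp1, -1.19 for Lsamp and -0.87 for Abca6. The 3 contrasts share the mCherry HFD mice. Several of these differences did not hold in other settings. In the low-other-RNA nuclei Smpd3 turned to -0.51 for Tert and -0.27 for TertCi, and Opcml (diet and Tert) and Lsamp lost their call. With DESeq2, 5 of 6 kept their call for the diet, 3 of 7 for Tert and 6 of 8 for TertCi. The part of depth in these differences was not tested.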

How the results depend on the processing

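No paired analysis was possible because the mouse numbers differ between groups; the only block joins the 2 populations of a mouse, and with no replicate block 0 genes differed between populations for the diet, 0 for Tert and 0 for TertCi. The diet count of 3892 became 2011 with marked doublets removed, 2030 after thinning and 1815 in the low-other-RNA nuclei, and 1353 to 4415 without 1 mouse. The Tert count of 2302 became 1427 with DESeq2, 801, 1188 and 863 in the same 3 settings, and 397 to 2607 without 1 mouse. The TertCi count of 4283 became 2656 with DESeq2, 2329, 2194 and 2089, and 1469 to 4803 without 1 mouse. The count of 0 between Tert and TertCi became 1 with DESeq2 and 88 with no filter, and was 0 without any 1 mouse. The population differences numbered 17, 4 and 16 with DESeq2 for the diet, Tert and TertCi, 147, 64 and 98 with no filter, 37, 15 and 17 at the library depth threshold, 187, 54 and 114 in the low-other-RNA nuclei, and 46 to 184, 26 to 74 and 71 to 97 without 1 mouse. Of 993 alternative values for 66 gene results, 871 kept direction and side of the threshold, 120 lost the call and 2 reversed: Smpd3, to -0.51 for Tert and -0.27 for TertCi. The cause of these shifts was not tested. With free RNA taken from barcodes of 100 to 500 UMIs, the called genes over free RNA were 487 higher and 206 lower for the diet, 209 and 334 for Tert and 412 and 455 for TertCi. Both shares kept their result, with adjusted p from 0.267 to 1. With 2 mice a group and 300 nuclei in the smallest sample, low genes such as Tert and mCherry are limited by depth.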
